A study of Homo sapiens with 9 samples.

Results

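Cells labelled BxPC3 and treated with PK9328 were compared with cells given vehicle (DMSO) across all expressed genes. The comparison takes 3 PK9328 libraries and 3 DMSO libraries of the 9 in the series, chosen by their treatment labels alone, and 13914 of 56865 annotated genes passed the filter on low counts and were tested. BxPC3 is an established human line from a pancreatic adenocarcinoma. All groups carry the genotype given as p53Y220C/-, in which the Y220C substitution changes the p53 protein, so the vehicle cells hold the mutant allele too. The drug cells received 5 µM for 6 h. The remaining 3 libraries are labelled MS172, although the protocol names MS78 as the second compound, and they entered the fit so that all groups shared the estimate of the spread. The experiment rests on 1 cell line, and the labels do not name separate cultures for the replicates. The p-values thus reflect the spread among these libraries, and that spread may be technical.

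The literature knows PK9328 as a small molecule that binds the pocket left by the Y220C substitution in p53. Intact p53 switches on genes that stop the cell cycle or start apoptosis, CDKN1A and MDM2 among them. Several of those genes also answer to the integrated stress response, in which kinases that sense amino acid shortage, unfolded protein in the endoplasmic reticulum or other stress phosphorylate the translation factor eIF2. Most translation then slows, while the transcription factor ATF4 is made and, with its partner CHOP (the product of DDIT3), turns on genes of amino acid supply, redox defence and cell death. The unfolded protein response of the endoplasmic reticulum adds the factors XBP1 and ATF6, which raise chaperones and the machinery of protein degradation.

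Libraries held 24077353 to 28031886 estimated reads. The first principal component of log2 CPM (estimated reads of a gene per 1000000 of its library) over all 9 libraries took 35.6% of the variance and set MS172 (28.2 to 31.2) apart from the rest, with DMSO at -9.61 to -6.28 and PK9328 at -22.9 to -19.6. The second (12.6%) put DMSO at 13.7 to 19.5, PK9328 at -21.1 to -5.46 and MS172 at -8.86 to 3.02. Of 10 ductal and epithelial markers, 4 stayed below 1 CPM in all 6 libraries, namely EPCAM (at most 0.0769 CPM), CDH1 (0.0384 CPM), KRT7 (0.107 CPM) and the chloride channel CFTR (0.0358 CPM). KRT8 (682 to 767 CPM), KRT18, KRT19, CLDN4 and SOX9 were expressed, and MUC1 was low (at most 4.44 CPM). The summed level of the 10 markers was 2225 to 2357 CPM with DMSO and 2094 to 2159 CPM with PK9328. That of 7 mesenchymal markers was 12011 to 12168 and 10304 to 10676 CPM. Of the mesenchymal markers, VIM (8342 to 9700 CPM) and COL1A2 (1858 to 2570 CPM) were high, and ZEB1 was at 89.6 to 108 CPM. SPARC (at most 3.69 CPM), COL1A1 (1.69 CPM), FN1 (0.786 CPM) and CDH2 (0.179 CPM) were low. The near-absent EPCAM, CDH1 and KRT7 beside high VIM and COL1A2 go against the label of an epithelial carcinoma line, while the levels of KRT8, KRT18 and KRT19 do not. The cells are thus called BxPC3 by their label alone. Endothelial markers summed to at most 0.236 CPM, the 6 acinar and endocrine markers were at 0 in every library, and the fibroblast list summed to 3.45 to 5.35 CPM with DMSO and 2.49 to 15.9 CPM with PK9328, nearly all of it ACTA2. In bulk RNA, fewer cells of a type and less RNA per cell cannot be told apart.

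The PK9328 libraries were made of shorter fragments. The estimated fragment length, read as transcript length minus effective length in long transcripts, was 289.1, 285.0 and 281.2 bases with DMSO and 261.2, 263.0 and 249.5 bases with PK9328. The groups did not overlap, and the means of 285.1 ± 4.0 and 257.9 ± 7.3 bases (SD, n = 3 each) differed by -27.2 bases (two-sided exact permutation test, p = 0.1, the smallest that 3 against 3 libraries can give). Within these 6 libraries fragment length and treatment cannot be told apart, so lists and main genes below are given with 1 or both of 2 further measurements. The first is the fold change in a model of all 9 libraries that also holds the fragment length of each, and the second is the fold change when only transcripts of at least 1000 bases are summed. The model with fragment length had a median standard error 2.06 times as large, so a call lost in it is not by itself a smaller change.

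A total of 2151 genes changed at an adjusted p under 0.05, which is 15.5% of those tested. Of these, 1110 rose (7.98% of all tested) and 1041 fell (7.48%). The changes were mostly small: 1669 of the called genes moved by less than 1.25-fold, and the middle of the distribution over all genes ran from -0.10 to 0.12 on the log2 scale between the quartiles. Large changes leaned upward, with 93 genes higher and 19 lower by over 1.5-fold, and 23 higher and 9 lower by over 2-fold. The plot of fold change against level shows the same lean, with a group of stress genes standing above the rest. Among the 1392 genes of highest level, 93 rose (6.68%) and 398 fell (28.6%). Counts of list members below are to be read beside these shares and those over all genes. When the dependence of counts on GC and length was also removed as an offset that was not centred, the balance moved to 1066 higher and 1578 lower. Without DMSO replicate 1 the number called was 1384, and without PK9328 replicate 2 it was 1400.

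**Figure D1:**
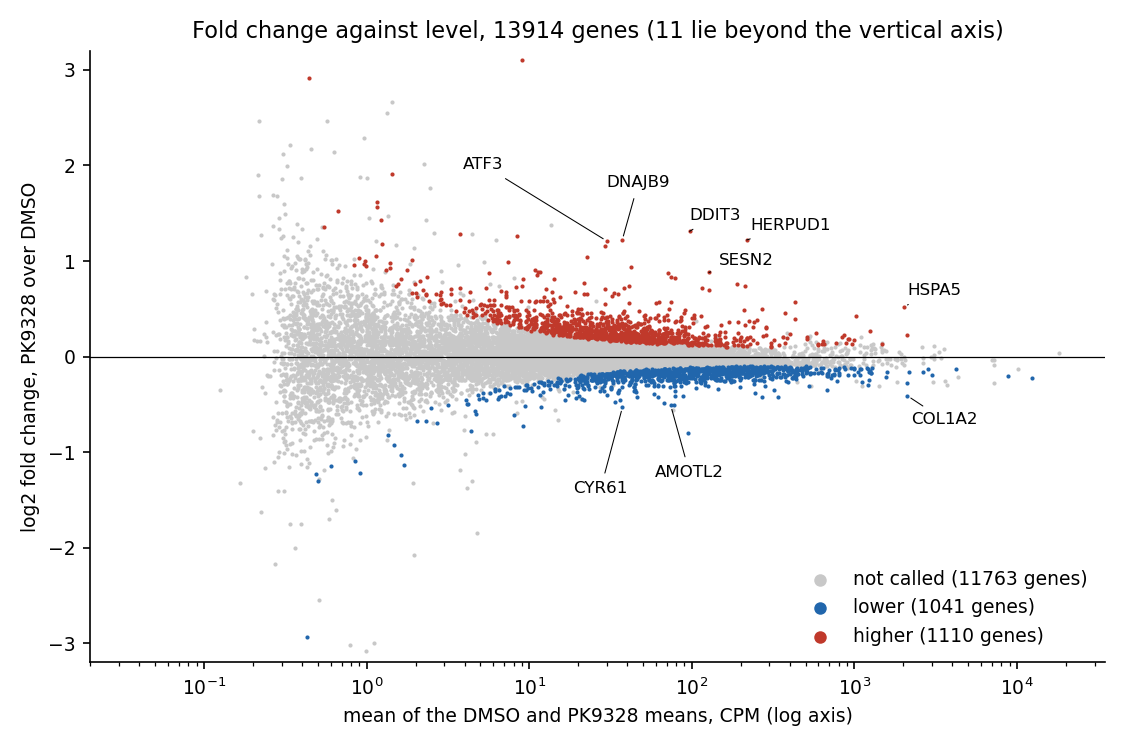
Log2 fold change of PK9328 over DMSO for 13914 genes against the mean CPM of both groups (log axis), with genes called higher in red (1110), called lower in blue (1041) and not called in grey. DDIT3, HERPUD1, DNAJB9 and ATF3 lie above 1 on the log2 scale at moderate to high level, and MALAT1 at -0.80 is the lowest called gene above 10 CPM.

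Adding fragment length to the model left 175 genes called, 109 of them higher (0.783% of all tested) and 66 lower (0.474%). Of the 2151 genes, 2084 (96.9%) kept their sign, and the median size of their change was 0.21 without and 0.20 with the term on the log2 scale. Single genes moved further, such as KLF2 from -0.51 to -0.14 and SNHG17 from 0.66 to 0.19. Calls in the same direction in both models numbered 152, of which 96 rose and 56 fell. Of the genes changed by over 1.5-fold, 27 that rose and 0 that fell were among them. With transcripts of at least 1000 bases alone, 2056 of 12799 genes were called (16.1%), and 1855 of the 2091 called genes that could still be tested were called in the same direction.

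**Figure D2:**
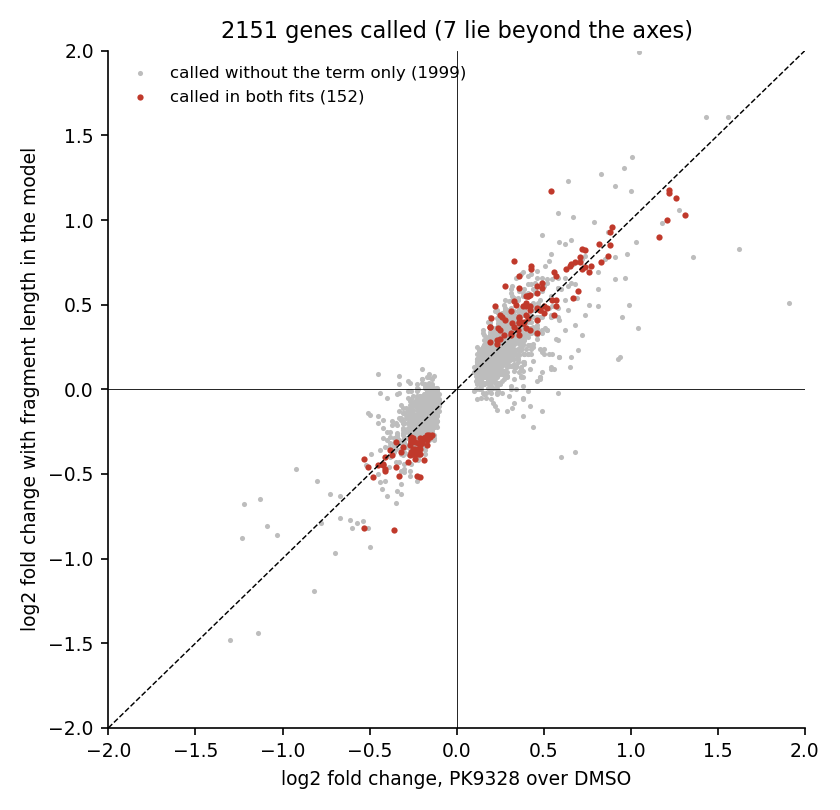
Log2 fold change of the 2151 called genes without (horizontal axis) and with (vertical axis) fragment length in the model, where red points are the 152 genes called in the same direction by both and the dashed line marks equal values. Of all points, 2084 keep their sign, and the red points among rises include DDIT3 at 1.31 and 1.03.

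Most listed factors of the integrated stress response rose. Of 22 listed genes 21 were tested, 15 rose and 1 fell, and their median log2 fold change was 0.46, beside 0.00 over all genes tested. DDIT3, which encodes CHOP (chr12:57516588-57521737 of GRCh38, minus strand), stood at 51.8, 58.0 and 57.1 CPM with DMSO and at 139, 130 and 145 CPM with PK9328. The groups did not overlap, which held upward for 15.9% and downward for 15.4% of all genes tested, and the rise was 2.48-fold (log2 1.31 ± 0.06 SE, adjusted p = 1.7e-10). ATF3, a stress-induced repressor and partner of other basic leucine zipper proteins, was at 17.8, 17.7 and 18.8 CPM with DMSO and at 41.3, 42.7 and 41.3 CPM with PK9328. Its groups were again far apart (2.31-fold, log2 1.21 ± 0.06 SE, adjusted p = 9.4e-15). ATF4, whose control is mainly translational, rose less, from 308, 316 and 328 CPM to 427, 433 and 449 CPM (log2 0.46 ± 0.04 SE, adjusted p = 1.7e-10).

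The downstream members moved the same way. TRIB3, a pseudokinase that dampens ATF4 and CHOP, rose from 141 ± 6 to 239 ± 7.7 CPM (log2 0.76). CHAC1, which degrades glutathione, rose from 50.8 ± 0.92 to 92.8 ± 1.4 CPM (log2 0.87 ± 0.05 SE, adjusted p = 9.4e-15). SESN2, a leucine sensor that restrains the growth kinase mTORC1, rose from a range of 88.6 to 90.0 CPM to a range of 164 to 166 CPM (log2 0.88 ± 0.04 SE, adjusted p = 4.1e-17). In none of these 3 genes did the groups overlap. PPP1R15A, the phosphatase subunit that removes the phosphate from eIF2, rose by 0.70 on the log2 scale, and the constitutive PPP1R15B rose by 0.25. The chromatin-associated stress protein NUPR1 (log2 0.89), the AP-1 relative JDP2 (0.88), CEBPG (0.57), ATF5 (0.50), the mTORC1 inhibitor DDIT4 (0.42) and CEBPB (0.40) rose as well. EIF2AK3, which encodes the endoplasmic reticulum kinase PERK, rose by 0.46. The 1 member that fell was TXNIP, which binds thioredoxin and limits glucose uptake (-0.25). INHBE, a secreted activin subunit known as an ATF4 target, rose from 4.34 to 5.83 CPM to 10.7 to 12.6 CPM (log2 1.26 ± 0.12 SE, adjusted p = 2.8e-09).

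In the model with fragment length, 14 of the 21 stress factors were called higher and 0 lower by edgeR (1 lower at an unadjusted p under 0.05), with a median log2 fold change of 0.49. DDIT3 gave 1.03 ± 0.10 SE (adjusted p = 8.3e-09) and ATF3 gave 1.00 ± 0.13 SE (adjusted p = 4.2e-06). EIF2AK3 (0.36) and TXNIP (-0.26) were not called there. DDIT3 has an average transcript length of 903 bases, so it could not be tested with transcripts of at least 1000 bases. Among the other 20 members, that setting gave 14 higher and 1 lower with a median of 0.47.

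**Figure D3:**
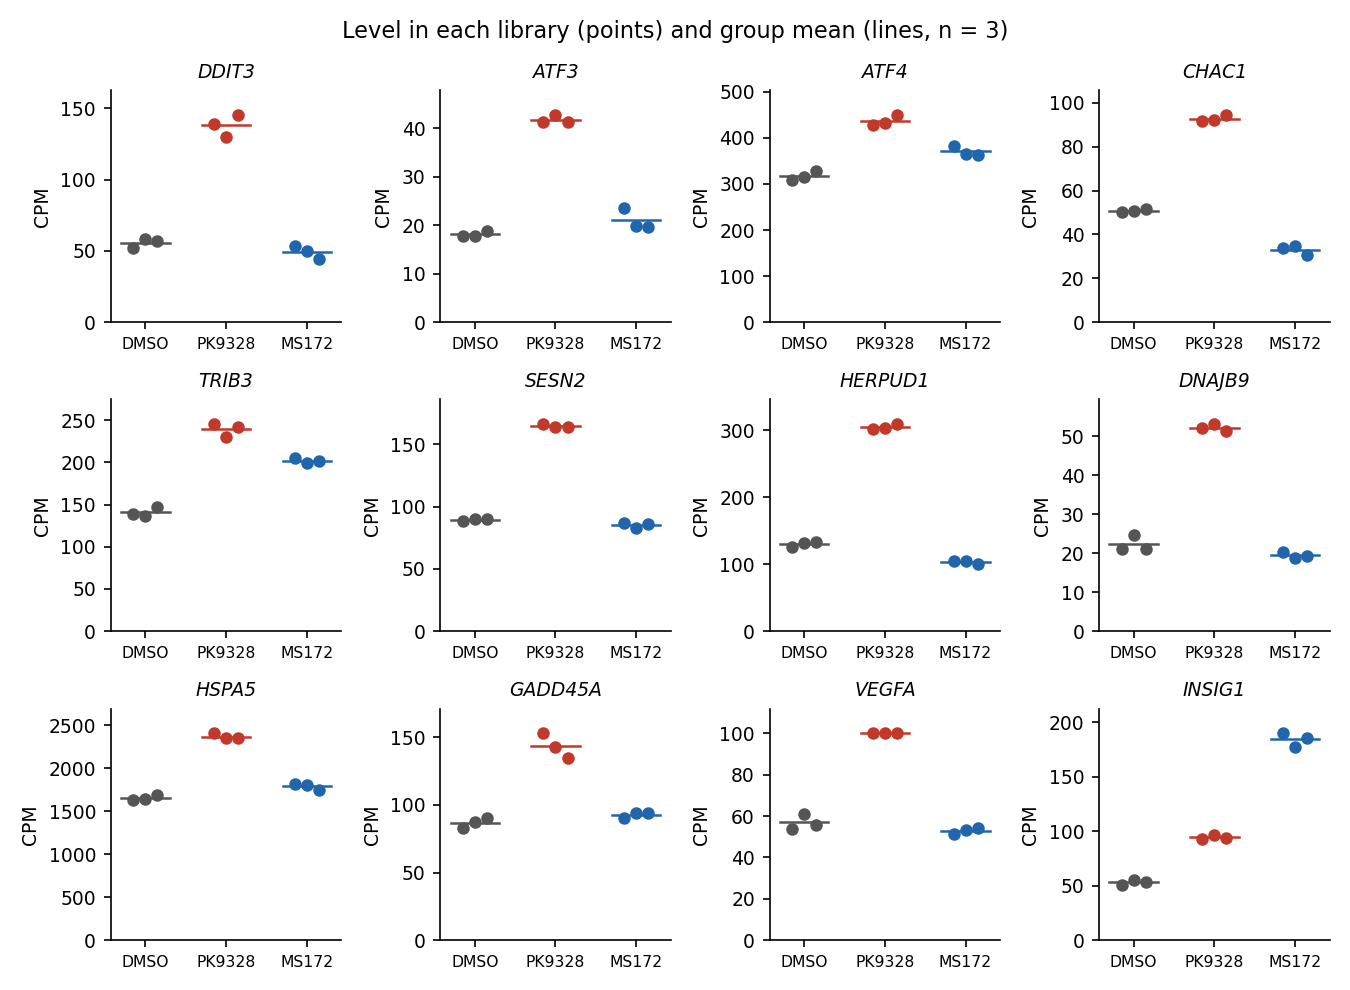
Level in CPM of 12 genes in each of the 9 libraries (points) with group means (lines, n = 3), for DMSO, PK9328 and MS172, each vertical axis starting at 0. For DDIT3 the PK9328 libraries lie at 130 to 145 CPM and the DMSO libraries at 51.8 to 58.0 CPM, and none of the 12 genes has overlapping DMSO and PK9328 libraries.

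Promoter letters are shown for 5 genes of this group and of the endoplasmic reticulum group that hold a known response element, because these elements are how ATF4, CHOP and the unfolded protein response recognise their targets. Windows of 250 bases before the RefSeq start (GRCh38.p14) were searched on both strands for the C/EBP-ATF composite element TGATGNAAN and for the endoplasmic reticulum stress element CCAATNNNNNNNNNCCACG, and none of the genes shown held both. The first was present in 1100 of 35116 windows (3.13%) and in 222 of 9975 tested genes with a window (2.23%), and the second in 26 windows (0.074%) and 16 tested genes (0.16%). Of 13 named genes from these lists 12 had a window, 4 held the first element and 2 the second. The match of CHAC1 lies in an annotated exon, so its letters are not shown, and the other matches are. A match is a description of the letters, and both patterns and genes were chosen after the values were seen. Capitals mark the element, each line reads 5′ to 3′ on the strand of its gene, and in HERPUD1 the element lies on the opposite strand.
ATF3, chr1:212565176-212565264, plus strand: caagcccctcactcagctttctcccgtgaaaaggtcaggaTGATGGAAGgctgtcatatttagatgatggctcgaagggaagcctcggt
HERPUD1, chr16:56931925-56932013, plus strand: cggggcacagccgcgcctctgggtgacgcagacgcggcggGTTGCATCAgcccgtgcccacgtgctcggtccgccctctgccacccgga
JDP2, chr14:75427966-75428021, plus strand: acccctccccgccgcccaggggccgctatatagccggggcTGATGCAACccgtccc
HSPA5, chr9:125241351-125241449, minus strand: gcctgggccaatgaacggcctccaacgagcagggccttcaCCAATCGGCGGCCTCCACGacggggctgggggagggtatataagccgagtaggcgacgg
XBP1, chr22:28800598-28800661, minus strand: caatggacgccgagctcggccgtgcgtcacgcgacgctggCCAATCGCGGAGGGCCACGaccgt
Among 865 genes with a window that rose, 30 held the first element and 3 the second.

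The endoplasmic reticulum genes split into a few strong rises and many small or uncalled values. HERPUD1, a membrane protein of the degradation complex (chr16:56932048-56944863, plus strand), was at 126, 132 and 133 CPM with DMSO and at 302, 303 and 309 CPM with PK9328. Its rise of 2.34-fold had the smallest p of all stress genes named (log2 1.22 ± 0.04 SE, adjusted p = 2.1e-21). DNAJB9, a co-chaperone that holds back the sensor IRE1, went from 21.2, 24.7 and 21.2 CPM to 52.1, 53.1 and 51.5 CPM (log2 1.22 ± 0.06 SE, adjusted p = 1.6e-15). HSPA5, the main luminal chaperone BiP, was at 1635, 1639 and 1686 CPM with DMSO and at 2405, 2350 and 2346 CPM with PK9328. That is a 1.43-fold rise without overlap (log2 0.52 ± 0.04 SE, adjusted p = 1.4e-11). SDF2L1, a cofactor of BiP, rose from 27.1 to 43.0 CPM (log2 0.66), and the co-chaperone DNAJC3 rose by 0.25.

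Other chaperones and folding enzymes went down a little. HSP90B1 (GRP94) fell by 0.20 on the log2 scale, the disulfide isomerases PDIA3 and P4HB fell by 0.19 and 0.14, and CRELD2 fell by 0.21. The 20 tested chaperones thus had 4 rises, 4 falls and a median of -0.03, and the 19 tested sensors and degradation genes had 2 rises, 2 falls (OS9 and WFS1) and a median of 0.09. With fragment length in the model HERPUD1 (1.16), DNAJB9 (1.18), HSPA5 (0.48), SDF2L1 (0.74) and XBP1 (0.60) remained called higher, and CRELD2 (-0.52) and OS9 (-0.28) lower. The 2 medians were then -0.08 and 0.01. Transcripts of at least 1000 bases gave 3 rises and 5 falls of 18 chaperones (median -0.04), and 2 rises and 2 falls of the sensors and degradation genes (median 0.10).

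XBP1 gave a second, transcript-level readout. Its messenger RNA rose from 178, 175 and 166 CPM to 251, 247 and 231 CPM (log2 0.49 ± 0.04 SE, adjusted p = 1.8e-10). Under stress of the endoplasmic reticulum the nuclease IRE1 removes a short intron from this messenger RNA outside the nucleus, and only the spliced form encodes the active transcription factor. In GENCODE 29, 2 of the XBP1 transcripts lack these 26 bases and 4 hold them (chr22:28796122-28796147, minus strand, within the coding sequence). Repeated letters at its ends allow the boundaries to be placed a few bases to either side. The removed stretch is shown in capitals between 20 bases on each side, 5′ to 3′, because the estimate turns on it.
XBP1 transcript around the short intron: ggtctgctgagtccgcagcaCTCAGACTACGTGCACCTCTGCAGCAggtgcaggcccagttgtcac
Transcripts without it made up 29.6, 33.4 and 35.9% of XBP1 TPM (reads per base of a transcript, scaled to 1000000 per library) with DMSO and 49.4, 49.3 and 48.5% with PK9328. The PK9328 share was higher in every library, at 49.1% ± 0.5 against 33.0% ± 3.2 (SD, n = 3 each; two-sided exact permutation test, p = 0.1, the smallest possible). TPM of the shorter form was 43.8, 51.2 and 49.1 with DMSO and 110, 109 and 99.2 with PK9328, while the longer form stood at 104, 102 and 87.5 and at 113, 112 and 105. In the MS172 libraries the share was 5.2, 4.3 and 3.7%. Among DMSO libraries the share was higher where fragments were shorter (35.9% at 281.2 bases, 29.6% at 289.1 bases). Among PK9328 libraries it was lowest at the shortest fragments (48.5% at 249.5 bases, 49.4% at 261.2 bases). The MS172 library with fragments of 274.1 bases had 5.2%. The part of fragment length in this result was not tested. The transcripts also differ outside these bases, their amounts are the authors' estimates rather than counts of junction reads, and this readout was chosen after its values were seen.

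**Figure D4:**
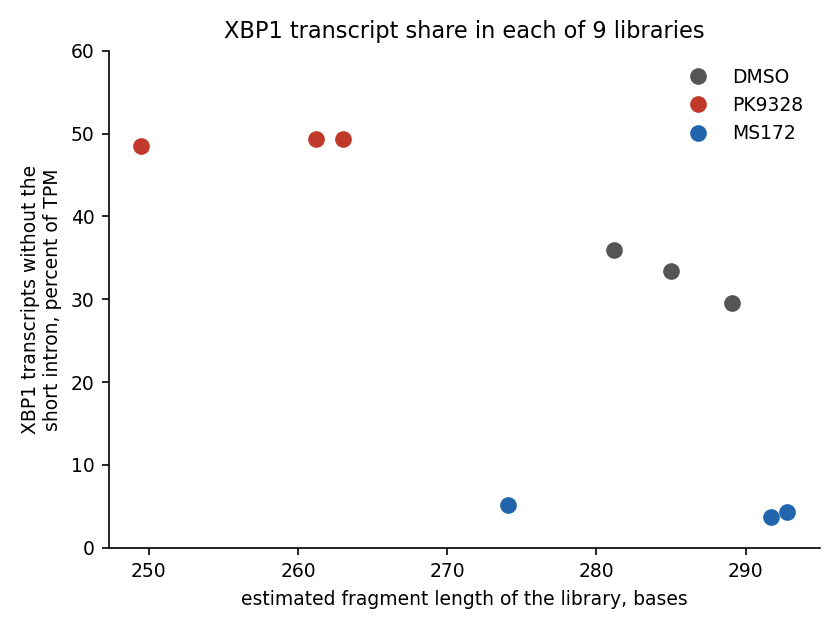
Share of XBP1 TPM from transcripts without the 26-base intron (vertical axis, percent) against the estimated fragment length of the library (horizontal axis, bases), 1 point per library. The 3 PK9328 libraries lie at 48.5 to 49.4%, the DMSO libraries at 29.6 to 35.9% and the MS172 libraries at 3.7 to 5.2%.

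Many genes of amino acid supply rose. Of 13 amino acid transporters tested, 9 rose and 0 fell in edgeR, with a median log2 fold change of 0.31. The number lower was 0 also at an unadjusted p under 0.05 and by DESeq2 and limma-voom, and the same held for the direction with 0 calls in the synthetase, p53, sterol, fatty acid, ligand, cell cycle, proteasome and small nucleolar RNA host lists below. SLC3A2, the heavy chain shared by several exchangers, was at 341, 340 and 355 CPM with DMSO and at 511, 510 and 520 CPM with PK9328 (log2 0.57 ± 0.03 SE, adjusted p = 1.7e-13). Its partners were also higher without overlap: SLC7A5, the leucine carrier, by 0.39 and SLC7A11, the cystine carrier, by 0.81. The glutamine carrier SLC1A5 rose by 0.31 and the serine carrier SLC1A4 by 0.68.

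In the list of serine, one-carbon, asparagine and proline synthesis, 9 of 17 genes rose, 1 fell and the median was 0.12. CTH, which makes cysteine from cystathionine, went from 15.5, 17.1 and 15.8 CPM to 29.3, 26.3 and 27.1 CPM, a gain that left the groups well apart (log2 0.77 ± 0.07 SE, adjusted p = 1.4e-09). The serine enzymes PSPH (0.46) and PSAT1 (0.33), the mitochondrial folate enzyme MTHFD2 (0.31) and GPT2 (0.43) rose, and ASNS, a classical ATF4 target, rose only by 0.17 (170 to 182 CPM with DMSO, 198 to 200 CPM with PK9328). MTHFD1, the cytosolic folate enzyme, fell by 0.14. Of 20 cytosolic aminoacyl-tRNA synthetases, which charge transfer RNAs, 8 rose and 3 fell, with CARS (0.33) and GARS (0.25) the largest of these rises. The mitochondrial synthetases, coded by separate genes, had 0 rises and 5 falls of 17.

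Once fragment length was in the model, 3 of the transporters (SLC3A2, SLC7A5 and SLC1A5) and 4 of the synthesis genes (CTH, PSAT1, PSPH and MTHFD2) were called higher, and 0 synthetases in either direction by edgeR (at an unadjusted p under 0.05, 5 cytosolic ones were higher and 1 lower, and 0 mitochondrial ones were higher and 1 lower). The medians were 0.32 for transporters, 0.07 for synthesis genes and 0.10 for cytosolic synthetases. SLC7A11 dropped to 0.49 (adjusted p = 0.26). With transcripts of at least 1000 bases, 9 transporters rose and 0 fell (median 0.32), 8 synthesis genes rose and 1 fell (0.08), 8 cytosolic synthetases rose and 3 fell (0.04), and 0 mitochondrial ones rose and 4 fell (-0.05).

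Targets of p53 were listed in 2 groups, those that ATF4 or CHOP also activate and the others, with earlier results of these data known, and the difference between the groups was not tested. All 7 listed targets that ATF4 or CHOP also activate rose, with a median log2 fold change of 0.72. CDKN1A, the cyclin-dependent kinase inhibitor p21, was at 15.5, 12.8 and 15.9 CPM with DMSO and at 21.5, 24.6 and 24.6 CPM with PK9328 (log2 0.68 ± 0.08 SE, adjusted p = 5.5e-07). GDF15, a secreted stress cytokine, rose from 158, 156 and 167 CPM to 262, 270 and 270 CPM (log2 0.74 ± 0.04 SE, adjusted p = 1.7e-15). BBC3, which encodes the pro-apoptotic protein PUMA, rose from 27.8 to 29.3 CPM to 45.6 to 48.5 CPM (log2 0.72). In none of the 3 did a DMSO library reach a PK9328 library. GADD45A (0.72), PMAIP1, which encodes NOXA (0.52), and the death receptor TNFRSF10B (0.32) were the others beside SESN2.

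Of 31 other p53 targets, 5 rose, 1 fell and the median was 0.02. The risers included PPM1D (0.45), the nuclease AEN (0.42), TIGAR (0.27) and PLK3 (0.32), and PLXNB2 fell by 0.18. MDM2, the ubiquitin ligase of p53, was at 4.92, 3.30 and 4.77 CPM with DMSO and at 3.41, 3.08 and 3.46 CPM with PK9328. The groups overlapped, and MDM2 was not called (log2 -0.38 ± 0.16 SE, adjusted p = 0.11). In edgeR with fragment length it gave -0.21 (adjusted p = 0.85). From long transcripts alone edgeR called it lower (-0.59, adjusted p = 0.043). The model with fragment length called 5 of the 7 shared targets higher, all but PMAIP1 (0.35) and TNFRSF10B (0.28), against 0 of the 31 others (3 higher and 1 lower at an unadjusted p under 0.05). Of 15 tested genes of the BCL2 family, 5 rose and 1 fell, among them BCL2L2 (0.34, and 0.31 with fragment length), a survival factor, and BOK (-0.18 and -0.16). Transcripts of at least 1000 bases gave 7 rises of the 7 shared targets (median 0.72), 5 rises and 2 falls of the 31 others (0.03), and 5 rises and 1 fall of 14 BCL2 family genes (0.04).

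Most genes of cholesterol synthesis and uptake rose. Of 23 tested, 14 rose and 0 fell, with a median of 0.24. INSIG1, which retains the sterol sensor in the endoplasmic reticulum, was at 50.8, 55.3 and 53.8 CPM with DMSO and at 93.0, 96.4 and 94.1 CPM with PK9328 (log2 0.83 ± 0.04 SE, adjusted p = 6.1e-15). The groups were clearly separate. HMGCS1, an early enzyme of the pathway, rose from 25.2 ± 1.4 to 39.0 ± 3 CPM (log2 0.63), IDI1 rose by 0.56 and MSMO1 by 0.71. The genes of the controlling factors, SREBF1 (0.00, adjusted p = 0.98) and SREBF2 (0.05, adjusted p = 0.41), were not called. Of 12 fatty acid synthesis genes 3 rose and 0 fell, namely LPIN1 (0.49), ACSL3 (0.17) and SCD (0.13). In the model with fragment length, HMGCS1 (0.71), IDI1 (0.69), MSMO1 (0.75), INSIG1 (0.75) and LPIN1 (0.63) were still called and the cholesterol median was 0.19. Long transcripts alone gave 15 cholesterol genes higher and 0 lower (median 0.23), and 5 fatty acid genes higher and 0 lower (0.06).

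Signalling genes showed modest rises. VEGFA, the main angiogenic ligand and a known ATF4 target, went from 53.8, 61.2 and 55.7 CPM to 100 CPM in each PK9328 library (log2 0.82 ± 0.05 SE, adjusted p = 3.7e-14), and with fragment length in the model the change was 0.86. Of the 8 ligands of the EGF and VEGF families, 4 rose and 0 fell, with EREG (0.38), AREG (0.31) and HBEGF (0.41) beside VEGFA, and those 3 were not called with fragment length. Among 15 cytokine and NF-kB targets there were 7 rises and 1 fall: the chemokine CXCL8 rose by 0.41 and the apoptosis inhibitor BIRC3 by 0.38, and both were called with fragment length (0.42 and 0.49), while CXCL1 fell by 0.19. Of 22 hypoxia and glycolysis genes 6 rose, led after VEGFA by hexokinase HK2 (0.48, and 0.47 with fragment length), and 1 fell. Of 26 immediate early genes 9 rose and 3 fell. EGR1 rose by 0.20, FOS was not called (0.31, adjusted p = 0.15), nor was MYC (0.07, adjusted p = 0.19). NFIL3, a circadian and cytokine-regulated repressor, rose from 29.9 to 31.5 CPM to 49.7 to 53.7 CPM (log2 0.74 ± 0.05 SE, adjusted p = 1.4e-11, and 0.82 with fragment length). From long transcripts the counts were 4 rises and 0 falls for the ligands, 7 and 1 for the NF-kB list, 6 and 1 for the hypoxia list and 9 and 3 for the immediate early genes.

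Some replication and division genes were slightly lower. Of 28 genes of the G1/S phase and DNA replication, 0 rose and 13 fell, with a median of -0.15, and of 30 genes of G2 and mitosis 0 rose and 12 fell, with a median of -0.10. Over all genes tested 7.48% were lower, and 28.6% of the 1392 genes of highest level were. These lists were not compared with genes of matched level. PCNA, the sliding clamp, was at 98.6, 104 and 102 CPM with DMSO and at 85.1, 82.9 and 83.2 CPM with PK9328 (log2 -0.28 ± 0.04 SE, adjusted p = 8.7e-06). MCM2 fell by 0.27, UHRF1 by 0.31, MKI67 by 0.31 and TOP2A by 0.24. None of these falls reached 1.25-fold. Both medians kept this size with fragment length (-0.15 and -0.09), where edgeR called 0 genes of either list and 6 of each were lower at an unadjusted p under 0.05. Long transcripts gave 0 rises and 12 falls for the first list and 0 rises and 9 falls of 29 for the second.

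Several heat shock and antioxidant genes also fell. Of 20 heat shock genes 9 fell and 1 (DNAJB1, 0.18) rose, beside 7.48% lower over all genes and 28.6% lower among the 1392 genes of highest level. HSPA1A, an inducible HSP70, was at 102, 98.8 and 103 CPM with DMSO and at 77.1, 75.4 and 76.7 CPM with PK9328 (log2 -0.41 ± 0.04 SE, adjusted p = 6.3e-09), and the fall held with fragment length (-0.40). Reads of HSPA1A and its near-identical copy HSPA1B cannot be fully told apart, and HSPA1B fell by 0.49. The constitutive HSPA8 fell by 0.30 and HSP90AA1 by 0.21, and with fragment length they gave -0.28 and -0.10. The heat shock median was -0.10, and -0.07 with fragment length. Of 31 proteasome subunits 0 rose and 7 fell, with a median of -0.06 (-0.05 with fragment length, where 0 were called by edgeR). That is 22.6% lower, beside 7.48% of all genes but 28.6% of the 1392 genes of highest level, among which the median level of the subunits (162 CPM) lies. Long transcripts gave 1 rise and 8 falls of 19 heat shock genes and 0 rises and 6 falls of 27 proteasome subunits. NRF2 targets went both ways, 5 up and 3 down of 24: TXNRD1 rose by 0.36 and NFE2L2, which encodes NRF2, by 0.38, PRDX1 fell by 0.26, and all 3 were called with fragment length. HMOX1 rose by 0.19 (adjusted p = 0.023, and 0.04 with fragment length), and the metallothionein MT1X was not called (-0.09, adjusted p = 0.44). The aryl hydrocarbon receptor target CYP1A1 was weakly expressed (1.03 to 1.36 CPM) and not called (-0.14, adjusted p = 0.81).

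Some matrix and YAP target genes were among the larger falls. COL1A2, a chain of type I collagen, was at 2295, 2490 and 2464 CPM with DMSO and at 1834, 1806 and 1799 CPM with PK9328. The groups were far apart, and it fell by 0.41 on the log2 scale (SE 0.04, adjusted p = 5.9e-09), or by 0.48 with fragment length (adjusted p = 0.0002). Of 20 tested collagen genes, a family looked at after values were seen, 10 fell and 1 rose (COL27A1, 0.44), with a median of -0.20. The share lower was 7.48% over all genes and 28.6% among the 1392 genes of highest level. With fragment length, 2 collagens (COL1A2 and COL18A1) were called lower. CYR61, a matrix protein and target of the YAP coactivator, fell by 0.53 (43.4 to 45.1 CPM to 28.1 to 32.5 CPM), and AMOTL2, another YAP target, fell by 0.51 (82.3 to 90.3 CPM to 57.9 to 63.0 CPM). Both were called with fragment length, at -0.41 and -0.46. Of the 15 YAP and TGF-beta targets, 4 fell and 0 rose (1 was higher at an unadjusted p under 0.05 in edgeR and by limma-voom, 0 by DESeq2). Their median was only -0.08 (-0.16 with fragment length). Values ran from -0.53 to 1.49, so the largest change in the list was a rise, which was not called. CAVIN2, a coat protein of caveolae, fell by 0.48, the Notch target HES1 by 0.45 and the lipid enzyme LPCAT1 by 0.42, and these 3 were called with fragment length as well. KLF2, a flow-responsive factor, fell by 0.51, but gave -0.14 with fragment length (adjusted p = 0.58). VIM, the most abundant mesenchymal marker, fell by 0.20 (-0.11 with fragment length). Long transcripts gave 1 rise and 9 falls for the collagens, 0 rises and 4 falls for the YAP and TGF-beta targets, and -0.54 for KLF2.

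For 2 groups of short transcripts the values changed with fragment length in the model. Small nucleolar RNA host genes, short transcripts that carry these guide RNAs in their introns, had 11 rises and 0 falls of 20 tested, with a median of 0.38 and a median length of 786 bases. With fragment length in the model 1 was called (SNHG1, 0.54) and the median was 0.10, and with transcripts of at least 1000 bases the median was 0.07. SNHG17 is an example: it rose from 17.7 ± 1.2 to 27.9 ± 2.2 CPM (log2 0.66), but gave 0.19 with fragment length and -0.08 with long transcripts alone. Ribosomal protein genes, with a median length of 696 bases, also differed between settings. Of 80 tested 9 rose and 3 fell with a median of 0.08, yet the median was -0.10 with fragment length and -0.08 with long transcripts, where 2 rose and 10 fell. RPL31, for instance, rose by 0.20 and gave -0.02 and -0.20 in the 2 settings, and the sign for the ribosomal protein list cannot be read from these libraries. Across all genes, the 1392 shortest (up to 940 bases) had a median of 0.04 without and -0.08 with fragment length, and equal bins of longer genes lay between -0.01 and 0.00 without it. With fragment length the medians of those longer bins climbed with length, from -0.03 to 0.04. The 1392 genes of lowest GC content had a median of 0.06 and the 1392 of highest GC content -0.05 (0.10 and -0.05 with fragment length).

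**Figure D5:**
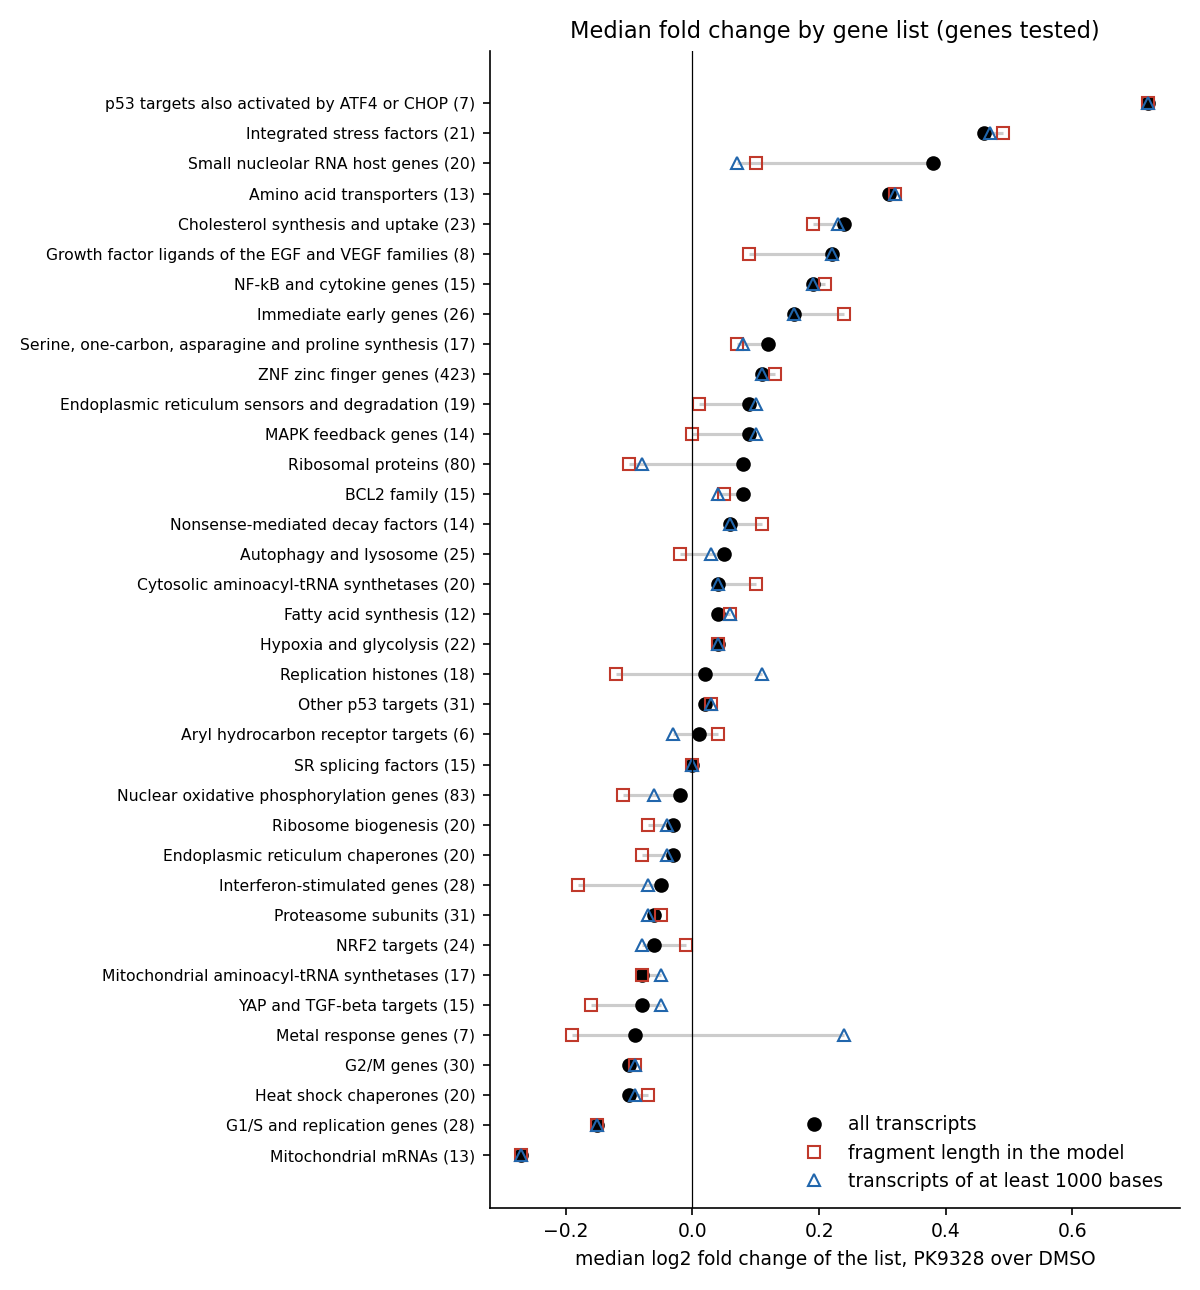
Median log2 fold change (horizontal axis) of each gene list with the number of genes tested, from all transcripts (black), with fragment length in the model (red squares) and from transcripts of at least 1000 bases (blue triangles). The 3 symbols lie together for the stress factors (0.46, 0.49 and 0.47) and apart for the small nucleolar RNA host genes (0.38, 0.10 and 0.07).

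Zinc finger genes of the ZNF family, mostly DNA-binding repressors, had 55 rises and 3 falls of 423 tested, with a median of 0.11. The rises make 13% of the list, beside 7.98% of all genes and 8.69% of the 1392 genes at 6.67 to 12.8 CPM, where the median level of the list (7.33 CPM) lies. The falls make 0.709%, beside 7.48% and 2.08%. The median was 0.13 with fragment length, where 1 was called, and 53 rose and 2 fell with long transcripts. Nuclear genes of oxidative phosphorylation had 1 rise and 7 falls of 83 with a median of -0.02 (-0.11 with fragment length). That share of falls is close to the 7.48% over all genes, while the 1 rise stands beside 7.98% of all genes. Long transcripts gave 1 rise and 7 falls of 46 (median -0.06), beside 1054 rises and 1002 falls of 12799 genes. A lean of the list was not tested. ATP5MC1 fell by 0.42, and by 0.45 with fragment length. The 13 mitochondrial messenger RNAs had a median of -0.27, and 0 were called by edgeR, DESeq2 or limma-voom or had an unadjusted p under 0.05.

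Among coding genes called without overlap of the groups and at a mean of at least 1 CPM, the largest fold changes included weakly expressed genes with wider errors. KLHDC7B rose by 1.62 from 0.426 to 0.659 CPM to 1.58 to 1.90 CPM, and IL21R, a cytokine receptor, by 1.28 from 1.84 to 2.52 CPM to 4.85 to 5.96 CPM. FSBP rose by 1.91, with 1.43, 1.44 and 3.98 CPM in the PK9328 libraries, but it overlaps another gene and gave 0.51 with fragment length. TMEM200B fell by 1.13 and TMOD1, which caps actin filaments, by 1.03, with levels of 2.08 to 2.50 CPM with DMSO across the 2 genes. None of these 5 was called with fragment length (adjusted p from 0.10 to 0.87). The antisense transcript AC011611.3 had the largest rise among noncoding genes called by the same limits, from 2.25, 0.833 and 2.69 CPM to 9.25, 15.8 and 23.6 CPM (log2 3.10 ± 0.55 SE, adjusted p = 0.013), with 1.82 in the model with fragment length (adjusted p = 0.67). It lies within PHLDA1 on the opposite strand, a gene at 860 CPM with DMSO and 977 CPM with PK9328. The strand setting of the counts is unknown, and whether PHLDA1 reads entered this value was not tested. MALAT1, an abundant nuclear RNA, fell by 0.80, from 109, 126 and 125 CPM to 83.0, 63.8 and 59.6 CPM, and gave -0.54 with fragment length (adjusted p = 0.52).

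Several named genes differed when PK9328 was set directly against the MS172 libraries. Fragments of the MS172 libraries were estimated at 274.1, 292.8 and 291.7 bases, fragment length was not in the model of this comparison, and its part in these differences was not tested. HERPUD1 was higher with PK9328 by 1.55 (adjusted p = 1.9e-24), DDIT3 by 1.49 (4.9e-12), CHAC1 by 1.49 (1.6e-20) and PPP1R15A by 1.31 (6.7e-21) on the log2 scale. MS172 libraries had 101 to 105 CPM of HERPUD1, below every DMSO library. INSIG1 was lower with PK9328 than with MS172 by 0.96 (log2 -0.96, adjusted p = 4.4e-18), CXCL8 by 1.58 (-1.58, 6.7e-23) and CYR61 by 1.51 (-1.51, 2.5e-20). AMOTL2 gave 0.01 (adjusted p = 0.84), having fallen by similar amounts with both compounds (-0.51 and -0.52). The dose of the MS172 libraries comes from a protocol with another compound name, so equal dosing is not established.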

How the data were processed

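For each of 197653 transcripts, a library's deposited table lists an expected (estimated) read count and a TPM value beside transcript length and effective length, per the file headers. TPM had been scaled by the authors to transcript length and library total, and the estimated counts had not been normalised. FastQC 0.11.8 and hg38 are named in the submitters' processing notes; the quantification program is not given in the sources used here. Groups came from sample titles.

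Transcripts were matched without version to GENCODE 29 (193348 matched; the others held 0.356% to 0.382% of reads), estimated counts were summed for 56865 genes and rounded, and coordinates are 1-based on GRCh38. All 9 libraries entered 1 quasi-likelihood fit in edgeR 4.0.16 (R 4.3.3; TMM, filterByExpr, robust dispersion, no replicate term, 6 residual degrees of freedom, biological coefficient of variation 0.044), with Benjamini-Hochberg adjustment over 13914 genes at 0.05; "rose" and "fell" mean past that threshold, and ± with CPM is an SD over 3 libraries. Standard errors were obtained by dividing each fold change by the root of F. CPM used TMM-scaled totals, except for marker lists, which used plain totals. The fit was tested on simulated data without a difference in fragment length. It recovered 74% of genes simulated to change by 0.3 on the log2 scale and 100% of those changed by 1. There were 9 false calls in 13750 genes. Fragment length was the median over transcripts of at least 3000 bases, and its model had 5 residual degrees of freedom.

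Alternatives were RLE factors, DESeq2 1.42.0, limma-voom 3.58.1, other filters, a replicate block, fewer libraries, length-scaled TPM, GC and length offsets (mgcv 1.9.3) and each library left out. Named genes were coding genes called without overlap and at least 1 CPM (the largest rises and falls, the smallest p-values, the largest also called with fragment length), up to 4 members per list, 4 noncoding genes each way and a set named whatever its result; some are not reported here, and other list members are examples chosen after their values were seen. The members and lists were chosen with earlier results of these data known. The collagen, cathepsin and glucocorticoid lists, the XBP1 shares and the promoter search were added after seeing the data.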

Additional observations from a re-analysis of the deposited data

How the results depend on the processing

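The number of genes changed stayed within 1.5 times 2151 with RLE factors, DESeq2, limma-voom, other filters, the 6 libraries alone, long transcripts and both GC and length offsets. It was 1080 (541 higher, 539 lower) from length-scaled TPM, 175 (109 and 66) with fragment length in the model, 73 (57 and 16) with fragment length and a replicate block, and 48 (44 and 4) with fragment length in the 6 libraries alone. The uncentred offset gave 1578 lower genes against 1041. Leaving out each library in turn gave 1384 to 2215 genes changed, 712 to 1137 higher and 650 to 1107 lower. The replicate number as a block gave 1884 genes (998 higher, 886 lower). Same-numbered DMSO and PK9328 libraries correlated at -0.09, 0.11 and 0.24 in their deviations, and only the libraries numbered 3 correlated best with their own number. These values do not show a pairing by number, and with 3 libraries a group they cannot exclude one. The cause of these differences was not tested beyond the larger standard errors and the fewer libraries that the settings bring.

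Of 133 named genes 124 were called, and 22 of those were called in the same direction in every setting that could test them: ATF3, CEBPB, CEBPG, CHAC1, DDIT3, DNAJB9, GADD45A, GDF15, HERPUD1, HSPA5, IDI1, INSIG1, LPIN1, MSMO1, NFIL3, PPP1R15A, SESN2, SLC3A2, TRIB3, TSC22D3, VEGFA and XBP1. Signs turned in 29 of the gene values. With fragment length in the model these were RPL31 (-0.02), CYP1A1 (0.06), FKBP5 (0.03) and SREBF1 (0.04), and with fragment length and the replicate block RPL31 (-0.01), CYP1A1 (0.34), FKBP5 (0.04), SREBF1 (0.06), MDM2 (0.06) and MTHFD1 (0.07). With fragment length in the 6 libraries alone they were RPL31 (-0.15), FKBP5 (0.02), FSBP (-0.67), HMOX1 (-0.07), MYC (-0.05), SREBF1 (0.02) and TMEM200B (0.13). Long transcripts turned RPL31 (-0.20), SNHG17 (-0.08) and MT1X (0.26), and length-scaled TPM turned CYP1A1 (0.07) and SREBF1 (0.10). SREBF1 also gave 0.05 and 0.03 with the offsets, 0.01 with no filter and 0.01 without DMSO replicate 3, PK9328 replicate 2 or PK9328 replicate 3, and FKBP5 gave 0.00 without DMSO replicate 2. The XBP1 share differed by 16.1 percentage points, by 16.2 from estimated reads, and by 14.4 to 17.6 with a library left out. Depth of 24077353 reads or more leaves genes under about 1 CPM with wide errors.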

Other observations

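Some further genes, looked at after their values were seen, moved with PK9328. TSC22D3, a leucine zipper gene best known as a glucocorticoid receptor target, was at 17.5, 16.3 and 20.3 CPM with DMSO and close to 40.2 CPM in each PK9328 library, without overlap (log2 1.16 ± 0.07 SE, adjusted p = 5.3e-12 by edgeR, and 0.90 with fragment length in the model). Of 11 tested glucocorticoid receptor targets, 6 rose and 1 fell, with a median log2 fold change of 0.20, and 3 were called higher with fragment length: TSC22D3, the clock gene PER1 (0.55 and 0.53) and the EGF receptor inhibitor ERRFI1 (0.27 and 0.32). FKBP5 (-0.01, adjusted p = 0.90) and SGK1 (-0.10, adjusted p = 0.068), other targets on that list, were not called.

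Cathepsins, proteases of the lysosome, fell in 6 of 10 tested genes and rose in 0 (0 also at an unadjusted p under 0.05 in edgeR and by DESeq2 and limma-voom), with a median of -0.14. Falls made up 7.48% of all genes tested and 28.6% of the 1392 genes of highest level. CTSB, CTSC and CTSV were also called lower with fragment length (-0.27, -0.29 and -0.51). In the wider autophagy and lysosome list the autophagosome genes MAP1LC3B and GABARAPL1 rose by 0.36 and 0.39, while LAMP1 fell by 0.19, and MAP1LC3B was called with fragment length (0.32) where GABARAPL1 gave 0.15 (adjusted p = 0.70). Interferon-stimulated genes had 3 rises and 4 falls of 28. The rises were the antigen-processing subunit PSMB8 (0.91, from 0.912 to 1.72 CPM on average), the signalling factor IRF9 (0.34) and IFIT5 (0.22), and none of these 3 was called with fragment length (1.20, 0.14 and 0.30). The falls were IFIT1 (-0.35), IFIT2 (-0.37), IFIT3 (-0.30) and OASL (-0.41), and IFIT1 was called lower with fragment length (-0.46).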
